A study of Mus musculus with 3 samples.

Results

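The genes described are the receptors for the colony-stimulating factors and the ligand of the macrophage receptor: Csf1r, Csf1, Csf2ra, Csf2rb, Csf2rb2, Csf3r and Il3ra. They were chosen by symbol, not by level, and are 7 of the 55536 Ensembl genes in each table, with 44 of 141767 annotated transcripts. The study sequenced total RNA, after removal of ribosomal RNA, from the cytosol of cultured bone marrow-derived macrophages of C57BL/6J mice. There was 1 group of 3 biological replicates, taken 10 minutes after 100 ng/ml Lipid A (the part of bacterial lipopolysaccharide that TLR4 recognises), each from 1 µg of RNA. No untreated group was analysed here, so every value is a level at that time and not a response. The 3 replicates carry 1 donor identifier and no record of sex. Whether they came from separate animals or cultures is not stated. Each p-value therefore refers only to these samples, whose differences may be technical. Gene counts totalled 33825547, 54667365 and 43176007 in replicates 1, 2 and 3.

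Colony-stimulating factors are secreted proteins that keep myeloid cells alive and direct their growth and maturation. Csf1r is the receptor tyrosine kinase for CSF1, on which bone marrow-derived macrophages depend in culture, and it dimerises when its ligand binds. GM-CSF and interleukin 3 act through a different kind of receptor, in which a ligand-specific alpha chain (Csf2ra or Il3ra) binds the factor and a beta chain carries the signal through the kinase JAK2. Csf2rb encodes the beta chain common to GM-CSF, interleukin 3 and interleukin 5, and Csf2rb2, a duplicate of it found in mice, encodes a beta chain used by interleukin 3. Csf3r is the receptor for G-CSF and is best known from neutrophils.

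All 7 genes reached 1 TPM in every library. TPM is the share of all transcripts assigned to a gene, after allowing for effective length and scaled to the same total in each library, so it can be compared between genes. Csf1r stood highest at 289 ± 18.0 TPM (SD, n = 3), followed by Csf2rb2 at 56.2 ± 4.27, Csf2rb at 41.3 ± 3.32, Csf2ra at 20.8 ± 3.51, Il3ra at 15.2 ± 1.71, Csf3r at 14.8 ± 0.798 and Csf1 at 10.8 ± 1.62 TPM. Among protein-coding genes, Csf1r ranked 91, 106 and 110 in replicates 1, 2 and 3, and Csf1, the lowest of the 7, ranked 3095, 3308 and 4229. The deposited TPM scale covers all entries, noncoding RNAs included. With TPM rescaled over protein-coding genes only, the level of Csf1r was 1166 and that of Csf1 43.8 TPM, in the same order of genes.

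**Figure D1:**
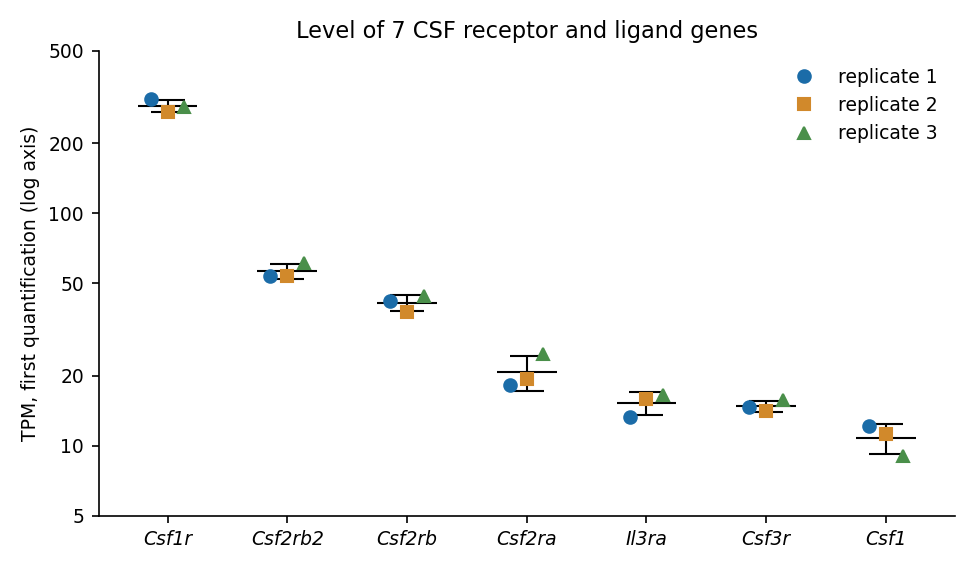
TPM of each gene in the first quantification on a log axis, with 1 point per library, a bar for the mean and error bars of 1 SD (n = 3). Csf1r lies far above the rest, the points of Il3ra and Csf3r overlap between about 13 and 17 TPM, and Csf1 is lowest in every library.

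Neighbours in this order were compared within each library as differences of log2(TPM + 1). Csf1r exceeded Csf2rb2 by 2.34 ± 0.14 (SD, n = 3), Csf2rb2 exceeded Csf2rb by 0.44 ± 0.07, Csf2rb exceeded Csf2ra by 0.97 ± 0.18, Csf2ra exceeded Il3ra by 0.42 ± 0.14 and Csf3r exceeded Csf1 by 0.43 ± 0.26, each in 3 of 3 libraries. Il3ra and Csf3r did not differ beyond their spread: the difference was 0.04 ± 0.15, and Il3ra was the higher in 2 of 3 libraries. By exact permutation of signs over the libraries (two-sided), p was 0.25 for each of these differences but the last, for which p = 0.75. The adjusted exact p over 7 pairs were 0.292 and 0.75. No p under 0.25 is possible with 3 libraries, so no pair could pass 0.05.

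The receptor for CSF1 and its ligand were at opposite ends of the order. Csf1r (ENSMUSG00000024621.16, mm10, chromosome 18, 61100598 to 61132149, plus strand) was at 309, 273 and 286 TPM in replicates 1, 2 and 3, from 83050, 113915 and 89018 reads. Csf1 (ENSMUSG00000014599.10, chromosome 3, 107741048 to 107760469, minus strand) was at 12.2, 11.2 and 9.03 TPM, from 2511, 3851 and 2255 reads. The libraries do not overlap between these genes, and the receptor transcript was 25.3, 24.3 and 31.7 times as abundant as that of its ligand. Their difference on the log2(TPM + 1) scale was 4.63 ± 0.19 (n = 3, exact permutation p = 0.25, adjusted 0.292). Csf1r alone also had 2.00, 1.80 and 1.67 times the summed TPM of the other 6 genes. Since the samples are bulk RNA, fewer cells with a transcript and less of it per cell cannot be told apart for any gene here.

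Most Csf1r transcript was assigned to forms with the full coding sequence, but the split between them depended on how reads were assigned. The transcript tables come in 2 versions, in the layouts that RSEM and kallisto write, called the first and second quantification below, and both were made from the same libraries. Csf1r-201 and Csf1r-202 share the same 2931 coding bases and 3686 bases in all. Csf1r-202 has 1015 bases of its own, mainly a longer 3′ end, and Csf1r-201 has 184. Together they took 97.7% ± 1.28 of the gene's TPM in the first quantification and 72.2% ± 5.98 in the second (SD, n = 3). In the first quantification Csf1r-202 took 60.5%, 66.7% and 58.1% of the gene's TPM and Csf1r-201 37.0%, 29.9% and 41.0%. In the second, Csf1r-202 took 5.95%, 4.91% and 5.71%, Csf1r-201 64.5%, 62.4% and 73.1%, and Csf1r-205, an incomplete model of 416 bases, 28.9%, 32.5% and 20.8%. TPM allows for length, so few reads give a short model a large share. By reads in the second quantification, Csf1r-205 held only 1.79%, 2.49% and 1.44%, and Csf1r-201 87.9%, 88.8% and 89.9%. The leading form was thus Csf1r-202 in all 3 libraries of the first quantification and Csf1r-201 in all 3 of the second, with no overlap. Of the 3′ end that only Csf1r-202 has, 873 bases lie over exons of Hmgxb3 on the opposite strand. Hmgxb3 was at 3.71 ± 0.235 TPM, and since strandedness is not given in the sources used here, reads of either gene in those bases may not have been told apart.

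Csf1 encodes long and short forms of the ligand that part at exon 6. The full exon encodes the stretch with the sites where the ligand is cut free of the membrane and where a glycosaminoglycan chain is attached, and forms without it stay at the cell surface. Csf1-201 and Csf1-203 join exon 5 to an exon 6 of 1016 bases (chromosome 3, 107748154 to 107749169) and have 1656 coding bases. Csf1-202 joins the same exon 5 to the last 131 bases of it (107748154 to 107748284) and has 771 coding bases. The junctions are shown because they are what separates the forms, with the end of exon 5 in lower case and the start of exon 6 in capitals, 5′ to 3′, from the mm10 GENCODE M21 transcripts.
Csf1-201: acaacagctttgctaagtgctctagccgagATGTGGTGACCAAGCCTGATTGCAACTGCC
Csf1-202: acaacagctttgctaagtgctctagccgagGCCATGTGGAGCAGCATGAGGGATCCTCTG
The long form, Csf1-201 plus Csf1-203, took 69.0%, 78.1% and 78.2% of Csf1 TPM in the first quantification and 73.2%, 81.8% and 82.8% in the second. The short form took 23.1%, 16.0% and 11.9% in the first and 9.69%, 5.13% and 2.66% in the second. The long form was therefore the larger in every library of both, and the share of the short form was lower in the second quantification in every library. Csf1-205, an incomplete model of 773 bases, held 7.51% ± 2.07 and 11.3% ± 1.95 (SD, n = 3).

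Both beta chain genes were above both alpha chain genes in every library. Csf2rb (ENSMUSG00000071713.6) lies on chromosome 15 from 78325752 to 78353847 on the plus strand, and Csf2rb2 (ENSMUSG00000071714.7) from 78282507 to 78305721 on the minus strand, with 20030 bases between their starts. Csf2rb2 was at 53.9, 53.6 and 61.1 TPM and Csf2rb at 41.9, 37.7 and 44.3 TPM in replicates 1, 2 and 3, with no overlap. Because these genes are near copies, reads from sequence they share cannot be assigned to either by sequence alone. Their leading transcripts, Csf2rb-201 (4764 bases) and Csf2rb2-201 (4740 bases), were therefore aligned end to end.

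Over 4519 aligned bases the transcripts were 93.7% identical. Identity was 98.4% before the coding sequence, 95.2% over the coding sequence, with 125 differences in 2628 aligned bases, and 90.5% after it. The aligned coding sequence ends where that of Csf2rb2 ends, at 2634 coding bases against 2688 in Csf2rb. Within it, 22 runs of 31 or more identical bases together held 1709 bases. The longest run, 242 bases inside 1 coding exon (chr15:78348577-78348818, plus strand, in Csf2rb and chr15:78284630-78284871, minus strand, in Csf2rb2), is shown because a read lying within it carries no information on its gene. Entries for the microRNAs Mir7676-2 and Mir7676-1, both with no count, lie within it.
Csf2rb and Csf2rb2: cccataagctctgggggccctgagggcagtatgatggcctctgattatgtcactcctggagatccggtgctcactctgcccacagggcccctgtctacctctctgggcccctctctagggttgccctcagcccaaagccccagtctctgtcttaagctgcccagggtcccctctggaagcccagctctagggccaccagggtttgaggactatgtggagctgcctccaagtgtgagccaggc
The least alike 60 bases of the aligned coding sequence without a gap, with 13 differences in capitals, show the opposite case, where a read is easily assigned. They lie at chr15:78338893-78338952 (plus strand) in Csf2rb and at chr15:78294379-78294438 (minus strand) in Csf2rb2.
Csf2rb: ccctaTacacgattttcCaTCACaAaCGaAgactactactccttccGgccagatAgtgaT
Csf2rb2: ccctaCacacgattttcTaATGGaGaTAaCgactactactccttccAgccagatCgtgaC

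**Figure D2:**
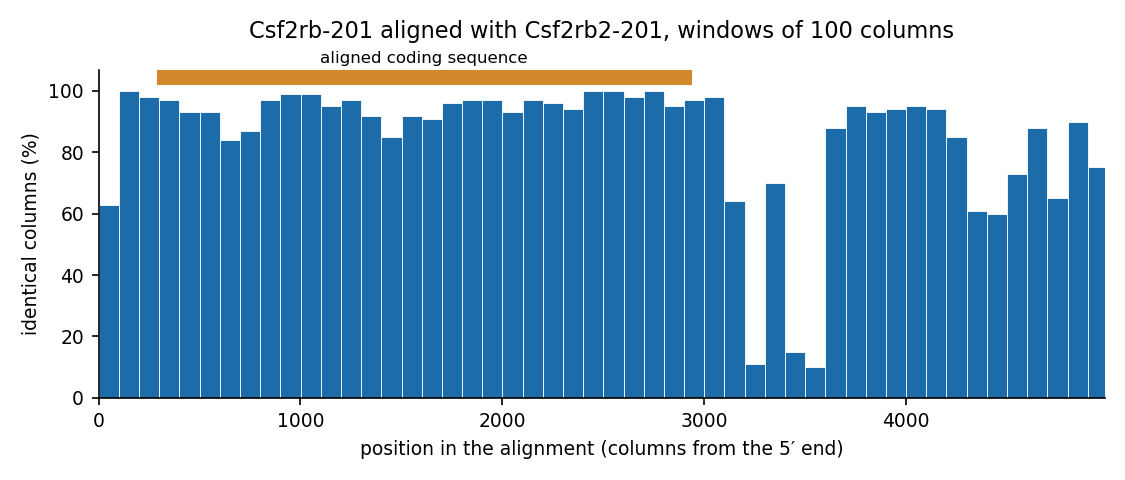
Percentage of identical columns in windows of 100 columns along the alignment of Csf2rb-201 with Csf2rb2-201, where a gap counts as not identical, with the aligned coding sequence as a bar on top. Most windows of the coding sequence are above 90%, and the lowest windows lie after it, where the alignment has 419 gap columns.

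Words of 31 bases measure how much of each gene is shared letter for letter. Of the words in the leading transcripts, 28.9% of those of Csf2rb and 29.2% of those of Csf2rb2 (1369 words) occurred in the other gene. Over all annotated transcripts the shares were 18.8% and 28.6%. Among the other 5 genes, Csf3r had the most shared words on the same strand, with 23.1% of its words in other genes. Of these 843 words, 728 were in the processed pseudogene AC105061.2 (chromosome 19, 60079432 to 60087657), which held 1, 1 and 0 reads. On the opposite strand Csf1r had the most of these 5 genes, with 864 of its words (14.9%) in other genes. Csf1 and Il3ra had no word in another gene on the same strand.

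The deposited tables give a posterior SD for each count, which measures how far the assignment of reads left a count open. It was 10.8, 15.2 and 12.2 reads in replicates 1, 2 and 3, with the same value for Csf2rb and Csf2rb2. For comparison, it was 2.35 to 2.78 reads for Csf1r and 0 for Csf1, Csf2ra, Csf3r and Il3ra. Csf2rb2 had 3145, 6972 and 5468 more reads than Csf2rb, which is 291, 458 and 447 times the SD of 1 count. No SD of the difference is given. A read moved from 1 gene to the other changes both counts, so the difference is more open than either count. The posterior SD holds within the model behind the tables. It does not cover errors of the annotation, counting error or the spread between libraries. Counting error, as the square root of the count, was larger, at 111, 132 and 122 reads for Csf2rb in replicates 1, 2 and 3. For Csf2rb2 it was 124, 156 and 143 reads.

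The order of the beta chains held in 5 of 6 measures and failed in the gene TPM of the second quantification. All 6 measures come from the same libraries, so they are not independent. Those by counts and by leading transcripts were chosen after seeing the data. Csf2rb was 0.778, 0.704 and 0.724 times Csf2rb2 by gene TPM in the first quantification, and 1.13, 0.991 and 0.851 times in the second, where replicate 1 was reversed. By counts the ratio was 0.796, 0.714 and 0.733 in the first and 0.823, 0.726 and 0.741 in the second. For the leading transcripts alone it was 0.784, 0.715 and 0.726 in the first and 0.799, 0.716 and 0.743 in the second. The measures differ in what short transcripts add. The second quantification gave Csf2rb-202 (397 bases, all within Csf2rb-201) 12.1% ± 5.79 of Csf2rb TPM and Csf2rb-203 (328 bases) 9.49% ± 4.28, where the first gave both 0. Csf2rb-201 took 96.1% ± 2.06 in the first and 70.6% ± 9.48 in the second, and Csf2rb2-201 95.3% ± 1.66 and 91.9% ± 2.41 (SD, n = 3).

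**Figure D3:**
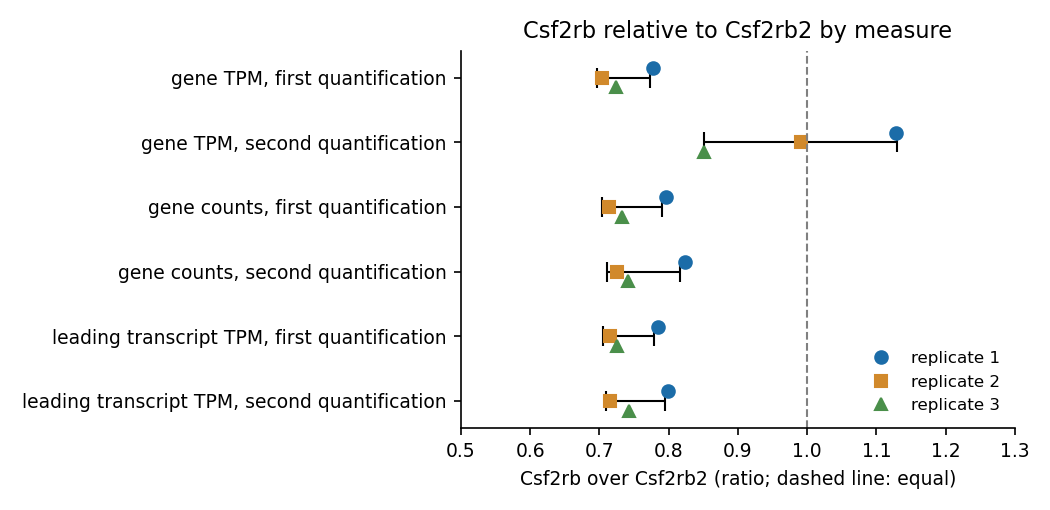
Csf2rb divided by Csf2rb2 under 6 measures, with 1 point per library and error bars of 1 SD around the mean (n = 3). All points lie between about 0.70 and 0.83 except those of gene TPM in the second quantification, which run from 0.851 to 1.13.

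The alpha chain genes were lower and closer together. Csf2ra (ENSMUSG00000059326.7, chromosome 19, 61223957 to 61228429, minus strand), which binds GM-CSF, was at 18.2, 19.3 and 24.8 TPM. Il3ra (ENSMUSG00000068758.8, chromosome 14, 14346275 to 14356011, plus strand), which binds interleukin 3, was at 13.3, 15.8 and 16.6 TPM, lower than Csf2ra in every library and with no overlap. Both beta chains together had 3.04, 2.60 and 2.55 times the TPM of both alpha chains. Csf2rb had 2.30, 1.95 and 1.79 times the TPM of Csf2ra, and Csf2rb2 4.05, 3.39 and 3.68 times that of Il3ra. These are ratios of transcript levels, and protein was not measured.

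Csf2ra had the largest noncoding part of the 7 genes in both quantifications. Its coding transcript Csf2ra-201 took 61.8%, 72.4% and 73.2% of its TPM in the first quantification and 71.3% ± 6.20 in the second. Annotated noncoding transcripts took 38.2%, 27.6% and 26.8%, mainly the retained intron model Csf2ra-205 (14.3% ± 3.49) and the processed transcript Csf2ra-204 (12.4% ± 2.37). Replicate 1 had the largest such share and replicate 3 the smallest, in both quantifications. These models are short, at 632 and 330 bases, and 562 and 319 of those bases are also in Csf2ra-201. By reads rather than TPM, Csf2ra-201 held 89.5% and Csf2ra-205 4.63% in the first quantification.

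Il3ra transcript was assigned to several coding forms. Il3ra-201, with 1188 coding bases, took 52.1%, 63.9% and 70.4% of its TPM in the first quantification and 53.2%, 62.9% and 73.1% in the second. Il3ra-205, which skips 2 exons and 279 coding bases near the start of the protein, took 13.8%, 11.5% and 12.6% in the first and 8.29%, 9.09% and 9.45% in the second. The incomplete model Il3ra-207 took 7.39% ± 2.31 and 12.6% ± 4.19 (SD, n = 3). The junctions after exon 2 are printed to show where the forms part, with the end of exon 2 in lower case and the next exon in capitals, which starts at chromosome 14, 14347914 in Il3ra-201 and at 14349243 in Il3ra-205.
Il3ra-201: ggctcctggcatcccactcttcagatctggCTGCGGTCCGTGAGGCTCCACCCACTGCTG
Il3ra-205: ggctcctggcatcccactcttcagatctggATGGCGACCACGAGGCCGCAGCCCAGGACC
The skipping form was the smaller in every library of both quantifications, at a share that varied less between libraries than that of Il3ra-201.

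Csf3r (ENSMUSG00000028859.14, chromosome 4, 126024550 to 126044440, plus strand), the G-CSF receptor, was at 14.7, 14.1 and 15.7 TPM from 2642, 3935 and 3126 reads. It was the steadiest of the 7 in CPM (counts scaled to the library size, here after TMM scaling), at 76.3, 73.8 and 72.3, a coefficient of variation of 2.76%. Because this receptor marks neutrophils, their markers were read beside it. Of 13 genes of neutrophils and their precursors, 4 (S100a8, S100a9, Ngp and Mmp8) reached 1 TPM in every library, Ly6g was at 0, and the list summed to 31.2, 45.0 and 44.7 TPM. The part of such cells in the Csf3r level was not tested. Csf3r-201 and Csf3r-202 share all 2511 coding bases and begin at different first exons. Csf3r-201 took 69.8% ± 2.33 in the first quantification and 44.6% ± 5.61 in the second, and Csf3r-202 17.6% ± 1.77 and 43.9% ± 3.83 (SD, n = 3), so the leading start was not settled by these tables.

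**Figure D4:**
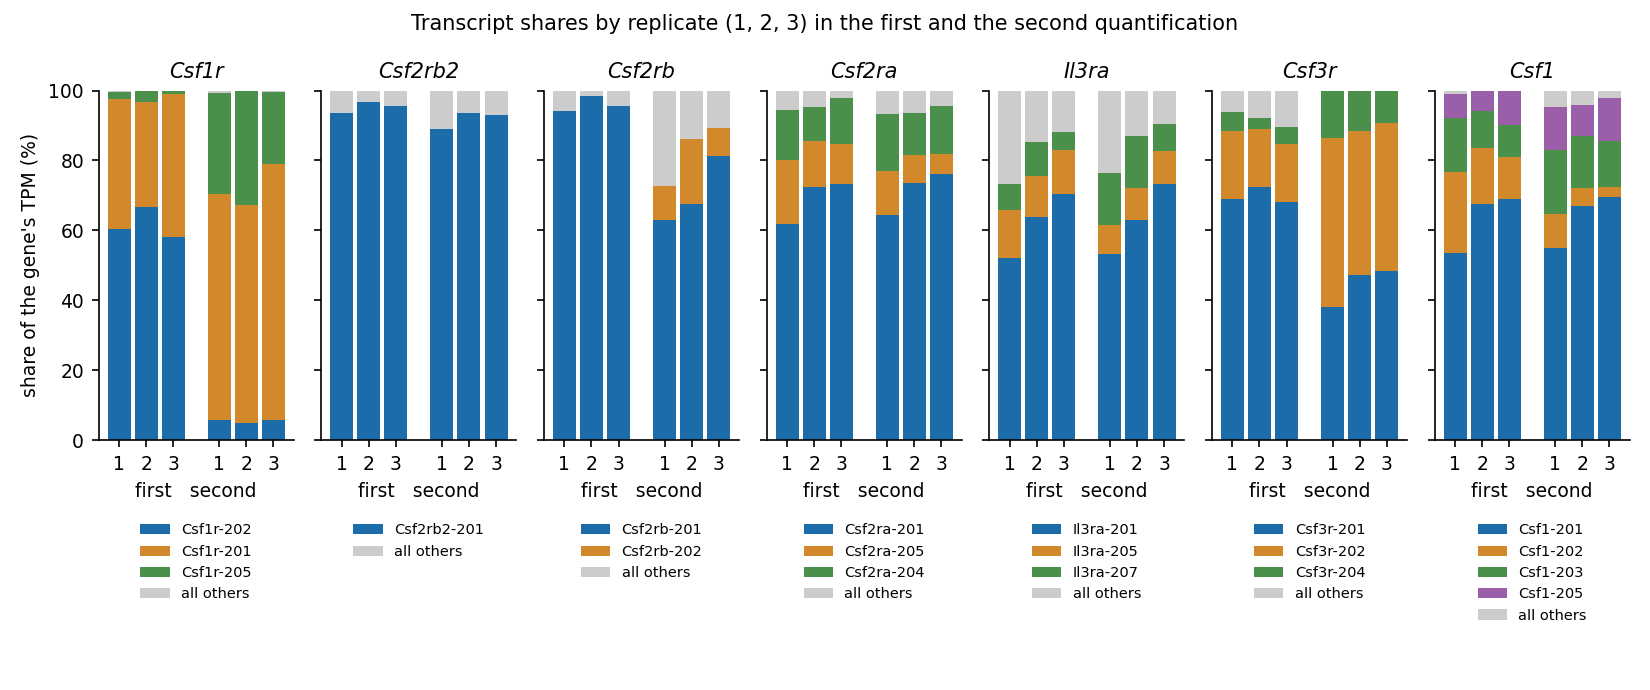
Share of each gene's TPM taken by its transcripts that reached a mean of 10% in either quantification, with all other transcripts in grey, for replicates 1, 2 and 3 in the first (left bars) and second (right bars) quantification. For Csf1r, Csf2rb, Csf2rb2 and Csf3r, the leading transcript of the first quantification has a smaller share in the second in every library. The bars of Csf1 show a smaller share of Csf1-202.

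The 3 libraries were then compared with each other. Counts differed between libraries beyond counting error in 6 of the 7 genes, all but Csf3r (adjusted p = 0.185), against 49.2% of the 13494 genes tested (chi-square test against TMM library sizes, Benjamini-Hochberg threshold 0.05). These calls grow with depth, and for 3 of the genes they rested on 1 library. Csf1 was at 72.5, 72.2 and 52.1 CPM, lowest in replicate 3, and without that library its adjusted chi-square p was 0.927. Il3ra was at 27.8, 37.5 and 37.0, lowest in replicate 1 (adjusted chi-square p = 0.789 without it). Csf2rb was at 354, 326 and 346, and without replicate 2 its adjusted chi-square p was 0.0678. Csf2ra was at 40.1, 48.5 and 55.8, Csf2rb2 at 445, 457 and 473 and Csf1r at 2399, 2136 and 2058. Csf2ra and Csf1 thus ran in opposite directions, with Csf2ra highest and Csf1 lowest in replicate 3.

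By size, none of the 7 genes reached a 1.5-fold range between the highest and lowest library in TPM, a range reached by 9.14% of the 9944 genes whose mean was 1 TPM or above. The widest were Csf2ra at 1.36-fold and Csf1 at 1.35-fold. The median SD of log2(TPM + 1) was 0.11 over the 7 genes and 0.10 over those 9944. The common coefficient of variation between libraries over all genes in edgeR was 14.4%. Without replicate 1 the chi-square test called 3516 of 12785 genes (27.5%) and 5 of the 7.

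The quantifications were compared gene by gene, after taking out the shift of the median gene. That shift was -0.46, -1.38 and -1.63 on the log2 scale in replicates 1, 2 and 3, so levels in TPM cannot be set side by side between them. Relative to it, none of the 7 genes was 2-fold apart, which 3.16% of 6172 genes at 5 TPM or more were. By TPM, Csf1r was higher in the second by 0.49 ± 0.09 and Csf2rb by 0.37 ± 0.15 (SD, n = 3). By counts scaled to the library total the same differences were -0.033 for Csf1r and 0.0066 for Csf2rb. The other 5 lay between -0.06 and 0.10 by TPM, and between -0.024 and 0.105 by scaled counts.

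Genes around the receptors were read from a list of 64, of which 46 reached 1 TPM in every library. None of 5 further ligands had a count in the first quantification: Csf2 (GM-CSF), Csf3 (G-CSF), Il3, Il5 and Il34, the other ligand of Csf1r. A count of 0 allows up to 0.0820, 0.0505 and 0.0691 TPM for Csf2 in replicates 1, 2 and 3, from 3 counts and for counting error only. The second quantification gave Csf2 3.38, 1 and 0 counts, Il34 1 count in replicate 1, and the other 3 ligands none. Csf1 was thus the only ligand of these receptors above 1 TPM among those listed. Of 6 receptors related by family or by ligand none reached 1 TPM. The stem cell factor receptor Kit was at 0.507 ± 0.0681 TPM, Flt3 at 0.153 ± 0.0651 and Pdgfrb at 0.0133 ± 0.00577 TPM. The interleukin 5 alpha chain Il5ra was at 0.01 ± 0.01 TPM, and Pdgfra and Ptprz1, another receptor for interleukin 34, were at 0.

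Of 24 adaptor and kinase genes near the receptors, 21 reached 1 TPM in every library. Tyrobp, the adaptor DAP12, was highest at 826 ± 65.3 TPM, above Csf1r itself. Grb2, which links phosphorylated receptors to Ras, was at 109.5 ± 11.9 TPM and the phosphoinositide 3-kinase adaptor Pik3ap1 at 97.2 ± 7.81 TPM. The Src family kinases Yes1 (0.0133 ± 0.00577 TPM) and Fgr (0.27 ± 0.0173 TPM) were lowest. All 8 downstream transcription factors passed 1 TPM, among them Stat3 (16.6 ± 0.845 TPM) and Mitf (9.93 ± 1.28 TPM), with Egr2 (3.26 ± 0.246 TPM) and Myc (1.80 ± 0.604 TPM) lowest. Of 11 inhibitors 7 passed, the phosphatases Inpp5d (48.2 ± 1.19 TPM) and Ptpn6 (46.4 ± 2.15 TPM) and the adaptor Dok1 (17.8 ± 1.43 TPM) being highest, while Socs2 (0.273 ± 0.0404 TPM) and Spry1 (0.03 ± 0.0173 TPM) were near 0.

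All 4 protease and trafficking genes were at 1 TPM or more. Adam17, the protease that sheds Csf1r from the surface, was at 27.5 ± 1.35 TPM, Furin at 24.0 ± 0.231, Adam10 at 22.9 ± 2.68 and the Adam17 partner Rhbdf2 at 7.59 ± 0.722 TPM. Of 6 regulators of the receptor genes, Spi1, which encodes PU.1, was highest at 65.7 ± 2.89 TPM, followed by Irf8 at 56.3 ± 2.62 and Cebpa at 44.4 ± 10.2 TPM. Runx1 (13.8 ± 1.24 TPM) and Cebpb (8.72 ± 2.45 TPM) were lowest. Cebpa, at 33.9, 45.3 and 54.1 TPM, was lowest in replicate 1 and highest in replicate 3, as Csf2ra and Il3ra both were. Cebpb, at 7.29, 7.32 and 11.55 TPM, had the same order, while the other listed regulators were lowest in replicate 2. A link of Cebpa or Cebpb to Csf2ra or Il3ra was not tested. Between libraries, 39 of the 53 listed genes with enough reads differed in the chi-square test, against 49.2% of all genes tested.

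**Figure D5:**
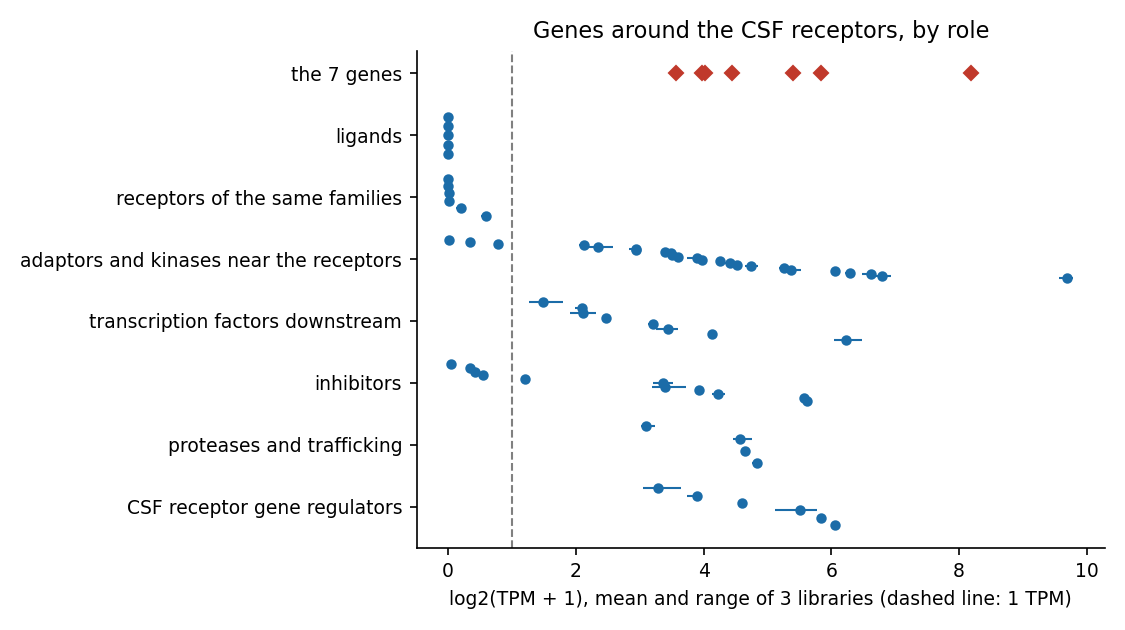
Mean log2(TPM + 1) of each listed gene by role, with the range of the 3 libraries as a line, and the means of the 7 genes as diamonds in the top row. The 5 further ligands are all at 0 and the 6 related receptors all below the line at 1 TPM, while most signalling genes lie between 2 and 7.

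The labelled cell type was checked with marker lists. All 10 macrophage markers, Csf1r among them, reached 1 TPM in every library. None of 8 mast cell and basophil markers, whose cells also use Il3ra and the beta chains, reached it, and they summed to 0.82, 1.10 and 1.06 TPM. None of 6 eosinophil and 8 stromal markers reached it in every library, and 1 of 8 dendritic (Batf3) and 1 of 8 T and B cell markers (Cd4) did. Their part in the levels of the 7 genes was not tested.

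The protein-coding genes most like each of the 7 in level were found by distance in log2(TPM + 1) over the 3 libraries. Near to Csf1r were the ribosomal protein genes Rps10 and Rplp0, with Rps10 at 306, 278 and 284 TPM. Hpgds, Myof and Qk were nearest to Csf2rb2, Tspo, Vps29 and Son to Csf2rb, and Sdf2l1, Slc27a1 and Hyou1 to Csf2ra. Ndufs4, Psmd3 and Col4a3bp were nearest to Il3ra, and Adipor2 and Ski were among the nearest to Csf3r. For Csf1 the nearest were Ifit3b (13.5, 11.2 and 9.89 TPM), Tgtp2 and Lpcat2, at distances of 0.18 to 0.19, wider than the 0.03 of Rps10 from Csf1r.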

How the data were processed

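Each library had a gene table and a first transcript table, both holding expected counts and TPM made by the authors, per the file headers, in RSEM's column layout. A second transcript table holds estimated counts and TPM made by the authors, per the file headers, in kallisto's column layout. Assembly and annotation are mm10 and M21. For aligner, quantifier, versions, strandedness and read length the sources used here give nothing. The tables also hold a posterior SD of each count, as deposited by the authors.

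Of 81881 gene entries, the 55536 Ensembl genes were used; the rest held 0.449%, 0.203% and 0.141% of counts in replicates 1, 2 and 3. Symbols, exons and transcript sequences are from GENCODE M21. The second tables totalled 37499131, 66949618 and 55268656 counts. No reference protein sequence was used.

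The 7 genes, the gene lists and the tests were chosen with earlier results of these data known. Genes named are the 7, their transcripts with a mean share of 10% or more in either quantification, the 3 nearest protein-coding genes, all listed ligands and receptors, and up to 3 highest and 2 lowest of other listed groups. Genes and transcripts named outside it (Hmgxb3, AC105061.2, Mir7676-1, Mir7676-2, Csf2rb-203 and single markers) were chosen after their values were seen. A few genes within the rule are not reported here.

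Differences between genes used log2(TPM + 1), which understates those of low genes, and an exact permutation of signs (two-sided). Libraries were compared by a chi-square test of rounded expected counts at a summed count of 30 or more, with TMM library sizes and an intercept-only edgeR model for the spread. Quantifications were compared with 0.1 TPM added, at 5 TPM or more in either. The leading beta chain transcripts were aligned globally (match 2, mismatch -3, gap open -8, gap extension -1). The chi-square test was tested on simulated counts that held counting error only, without the further spread between the real libraries. Alternatives varied quantification, scale, pseudocount, filters, library sizes (DESeq2), word length and libraries. Tools were R 4.3.3 with DESeq2 1.42.0 and edgeR 4.0.16, and Python 3.11.15 with Biopython 1.88, pandas 2.3.3, scipy 1.17.1, numpy 2.4.6 and matplotlib 3.10.9.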

Additional observations from a re-analysis of the deposited data

How the results depend on the processing

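All 7 genes reached 1 TPM in every library under each alternative tried, and the differences between genes kept their direction, except that Il3ra minus Csf3r ranged from -0.026 to 0.12 on the log2(TPM + 1) scale over the fits that leave out 1 library and was reversed without replicate 2. Csf2rb2 minus Csf2rb was 0.02 ± 0.20 by gene TPM in the second quantification. From leading transcripts and from counts, both chosen after seeing the data, it was 0.39 to 0.43. Genes called by the chi-square test numbered 3516 to 5192 when 1 library was left out. Total counts as library sizes called 7 of the 7 genes and 51.9% of all genes tested (adjusted chi-square p = 0.00593 for Csf3r). Genes with a 1.5-fold range numbered 8768 of 8840 (99.2%) in the second quantification, all 7 among them, 1863 with TPM over protein-coding genes, 323 among genes averaging at least 5 TPM, and 362 to 692 with 1 library left out. Genes 2-fold apart between quantifications numbered 615 at 1 TPM or more.

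In the second quantification the share of Csf1r-202 was 5.52%, of Csf2rb2-201 91.9%, of Csf2rb-201 70.6% and of Csf3r-201 44.6%. Shares of counts rather than TPM were taken in the first quantification. There Csf1r-202 was at 67.7%, Csf2rb2-201 at 97.9%, Csf2ra-201 at 89.5%, Csf3r-201 at 75.9% and Csf1-201 at 76.9%. By counts in the second quantification Csf1r-202 was at 9.05% and Csf3r-201 at 46.8%. Words of 25 and 50 bases gave 22.0% and 12.3% shared for Csf2rb and 33.7% and 18.4% for Csf2rb2, and protein-coding transcripts alone 26.2% for Csf2rb. Where no cause is given, the cause was not tested. No comparison between groups, paired or not, was possible because there is 1 group. With 3 libraries, no sign-flip p can pass 0.05, and the depth cannot show Csf2 below the bounds given above.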
